A study of Mus musculus with 63 samples.

Results

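Mfn2wt hearts, which express a human mitofusin 2 transgene, were compared with nontransgenic (ntg) hearts on postnatal day 1 (P1). The comparison takes the 4 columns of the gene count table named for Mfn2wt at P1 and the 6 named for ntg at P1, which are 10 of the 63 libraries of the series. All 10 came from mice of the FVB/N background and from the library preparation in which every P1 library was made. The Mfn2wt hearts carry the transgene for normal human mitofusin 2, and the 6 ntg hearts carry none. For comparison, 5 P1 hearts with the tet-off control transgene (tet-off), 3 P1 hearts with a mutant transgene (Mfn2AA), and 6 Mfn2wt and 6 ntg hearts of P21 and 4 of each of 5 weeks, were also read. The labels name neither the promoter that drives the transgene nor whether Mfn2wt hearts also carry the tet-off driver, and they give no sex. The tissue label of the P1 hearts is the whole heart, whereas the extraction protocol speaks of frozen ventricular apexes.

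Mitofusin 2 is a GTPase that sits in the outer membrane of mitochondria and joins them to one another. Once the kinase PINK1 has phosphorylated it on a damaged mitochondrion, it binds the ubiquitin ligase Parkin, the product of Park2 in the mouse annotation used, and the organelle can be removed by mitophagy. Around birth the heart turns from glucose to fatty acids as its main fuel, and its mitochondria are replaced and mature. The series asks how Parkin-dependent mitophagy bears on that change.

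The 4 Mfn2wt libraries held 8821906 to 14325915 counts and the 6 ntg libraries 7147271 to 12380233. Markers of ventricular cardiomyocytes were abundant in both groups, at 72060 to 91420 summed CPM (reads of a gene scaled to a common library size) over 14 markers in Mfn2wt and 72100 to 96200 in ntg libraries. Library titles carry a number whose meaning the labels do not give. All 4 Mfn2wt titles carry the same number, as in P1_Mfn2wt_10546-1, and end in 1, 3, 6 and 9, so they are called Mfn2wt libraries 1, 3, 6 and 9. Of the ntg titles 1 carries that number too (P1_ntg_10546-4, called the shared-number ntg library), and the other 5 carry another (P1_ntg_10582-1 to P1_ntg_10582-5, called ntg libraries 1 to 5). Genotype and title number therefore coincide except in the shared-number ntg library, and for the other libraries they cannot be told apart. High Ddx3y, a Y-linked gene, together with low Xist marked 1 of the 4 Mfn2wt and 3 of the 6 ntg libraries. Nothing in the labels says that libraries of a group came from different litters, so p-values measure the spread between these libraries.

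The transgene was expressed in all 4 Mfn2wt hearts. Its level was 494, 264, 305 and 291 FPKM (fragments scaled by transcript length and library size) in Mfn2wt libraries 1, 3, 6 and 9. It was 29.1 FPKM in the shared-number ntg library and 5.66, 16.3, 3.45, 1.79 and 97.6 FPKM in ntg libraries 1 to 5. The groups did not overlap, and the lowest Mfn2wt value was 2.70 times the highest ntg value. The means were 339 ± 105 FPKM in Mfn2wt and 25.6 ± 36.7 FPKM in ntg hearts (SD, n = 4 and 6). On the log2(FPKM + 1) scale the difference was 4.69 (exact two-sided permutation test, p = 0.00952 over 210 arrangements, where the smallest possible value is 0.00476). Transgene signal was thus listed in every ntg library, and it was 7.39 to 155 FPKM in the 5 tet-off libraries. What it comes from was not tested.

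Mouse Mfn2, the gene's own copy on chromosome 4 (147873595 to 147904819, build mm10), did not pass the test. It stood at 846, 700, 828 and 798 CPM in Mfn2wt libraries and at 668 to 783 CPM in ntg libraries (median 706). The log2 fold change was 0.16 ± 0.10 (SE), with an adjusted p of 0.56 by edgeR's quasi-likelihood test with Benjamini-Hochberg adjustment. In the table of FPKM, a scale per length, the transgene reached 1.86 times the mouse gene in Mfn2wt hearts on the ratio of means. The human and mouse sequences are alike, so reads could be split between them, and the mouse value is uncertain to that extent. Pink1, the kinase upstream of mitofusin 2, stood at 157, 133, 182 and 147 CPM in Mfn2wt and at 165 to 213 CPM (median 201) in ntg libraries. Its log2 fold change of -0.34 ± 0.09 missed the threshold (adjusted p = 0.101 by edgeR). DESeq2 called it with an adjusted p of 0.0210. Park2 was sparse, at 2.46 to 4.38 CPM in Mfn2wt and 3.02 to 5.14 CPM in ntg libraries, with a log2 fold change of -0.37 ± 0.21 (edgeR adjusted p = 0.472).

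Across the transcriptome few genes passed. Of 13653 genes tested, 20 had an adjusted p under 0.05 by edgeR, or 0.146%, with 12 higher and 8 lower in Mfn2wt hearts. Only 3 of the 20 differed by at least 2-fold. At an unadjusted p under 0.05 there were 1755 genes, with 7.06% of the genes tested higher and 5.79% lower. DESeq2 called 177 of 12716 genes, or 1.39%, and 19 of the edgeR 20 were among them. In limma on log2(FPKM + 1), 1 gene passed. Macrod2 was the gene that passed in each tool. Leaving out 1 library at a time moved the count from 1 gene, without Mfn2wt library 1, to 115 genes, without the shared-number ntg library.

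Macrod2 showed the greatest difference. It encodes a hydrolase that removes ADP-ribose from proteins. It spans 1994.6 kb of chromosome 2 (140395430 to 142390050, plus strand, mm10). Mfn2wt libraries held 25.7, 29.6, 36.0 and 34.3 CPM, against 6.21 CPM in the shared-number ntg library and 3.62 to 4.40 CPM in the other 5 ntg libraries. Every Mfn2wt value exceeded every ntg value by a wide margin. The mean was 31.4 ± 4.67 CPM in Mfn2wt and 4.29 ± 0.973 CPM in ntg hearts (SD, n = 4 and 6), a log2 fold change of 2.87 ± 0.14 (edgeR adjusted p = 4.6e-11), or 7.32-fold. It was called in each of the 22 alternatives, with log2 fold changes of 2.34 to 3.04. Against the shared-number ntg library alone the mean difference on the log2 scale was 2.24, against 2.85 from the other 5 ntg libraries. Tet-off libraries held 3.06 to 4.58 CPM and Mfn2AA libraries 2.64 to 3.65 CPM, both within or near the range of the ntg libraries.

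The genes that start within 2 Mb of the start of Macrod2 number 8 in the deposited annotation, of which 5 were tested and 0 were called by edgeR. Of these 5, 1 had an unadjusted p under 0.05. This was Ndufaf5, which encodes an assembly factor of respiratory complex I and starts 225 kb upstream. It stood at 19.3 to 26.3 CPM in Mfn2wt libraries, against 17.7 CPM in the shared-number ntg library and 13 to 17.8 CPM in the other 5 ntg libraries. All Mfn2wt values lay above all ntg values, with a log2 fold change of 0.53 ± 0.12 and an edgeR adjusted p of 0.0665. Esf1 starts on the other strand at about the same distance from Macrod2, and its log2 fold change was 0.08 ± 0.11. Tasp1 stood at 0.03 ± 0.14, Ism1 at 0.32 ± 0.45, and Flrt3, which lies inside Macrod2 on the other strand, at -0.32 ± 0.33.

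Sel1l2, whose start lies 6 kb before that of Macrod2 on the other strand, was too sparse to enter the test. It had 29 reads over the 4 Mfn2wt libraries, 3 to 12 in each, and 0 reads over the 6 ntg libraries. Against a floor of 3 reads over the ntg group it was at least 12.1-fold higher in Mfn2wt hearts. Without the filter on low counts it was called (edgeR adjusted p = 0.0374). The libraries are not strand-specific, so the strand of these reads is not known.

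**Figure D1:**
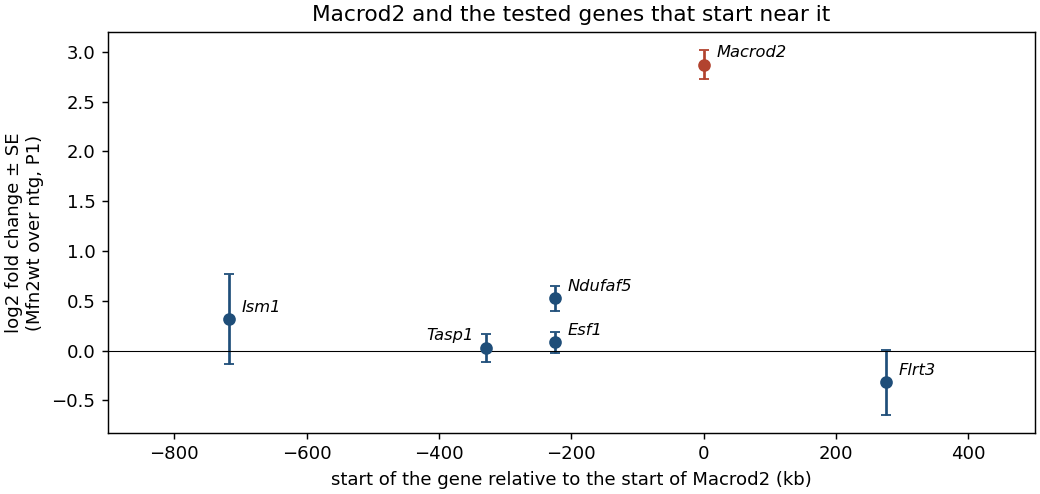
Log2 fold change of Mfn2wt over ntg hearts at P1 with its standard error for Macrod2 and the 5 tested genes that start within 2 Mb of it, by distance from the start of Macrod2 in kb. Macrod2 stands at 2.87, Ndufaf5 at 0.53 and the other genes between -0.32 and 0.32.

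The same pair of genes was read at later ages, where libraries, tissue (left ventricle) and preparation all differ from P1. Macrod2 was higher in Mfn2wt hearts at P21 by 3.04 ± 0.16 and at 5 weeks by 2.04 ± 0.22 on the log2 scale (edgeR adjusted p = 2.09e-14 and 1.56e-07), and by 2.87 ± 0.17 at P1 in the same fit. The difference between ages did not pass the test, at -0.17 ± 0.24 for P1 minus P21 and 0.84 ± 0.28 for P1 minus 5 weeks. Sel1l2 had 88 reads over the 6 Mfn2wt and 2 over the 6 ntg libraries of P21, and 13 over the 4 Mfn2wt and 0 over the 4 ntg libraries of 5 weeks. Ndufaf5 stood at -0.09 ± 0.11 at P21 and -0.31 ± 0.14 at 5 weeks, neither called.

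Next by p-value was Per3, a period gene of the circadian clock, which was lower in Mfn2wt hearts. It stood at 30.7, 34.1, 36.8 and 30.1 CPM in Mfn2wt libraries. Among ntg libraries it stood at 39.4 CPM in the shared-number library and at 60.2 to 72.1 CPM in the other 5. The groups did not overlap, but the shared-number ntg library lay close to the Mfn2wt libraries and apart from the other ntg libraries. The log2 fold change was -0.90 ± 0.13 (edgeR adjusted p = 0.00863). Against the shared-number ntg library alone the mean difference was -0.26, and against the other 5 it was -0.99. With the title number as a block, which leaves only the shared-number library on the ntg side, the log2 fold change was -0.26.

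Other genes of the clock stood on the same side without passing. Of 20 clock genes tested Per3 was the 1 called by edgeR, against 0.146% of all genes. At an unadjusted p under 0.05, 9 were lower and 2 higher, against 5.79% and 7.06% of all genes. DESeq2 called 5 of the list lower, against 1.39% of all genes called in either direction. The median log2 fold change of the list was -0.23, against about 0 over all genes tested, and -0.06 against tet-off hearts. Summed over the list, Mfn2wt libraries held 530 to 580 CPM. The shared-number ntg library, at 576 CPM, lay within that range, and ntg libraries 1 to 5 held 641 to 747 CPM. Dbp, which encodes a transcription factor that binds D-boxes, stood at 10.9, 13.9, 9.81 and 8.43 CPM in Mfn2wt libraries, against 15.1 CPM in the shared-number ntg library and 15.2 to 22.4 CPM in the other 5 ntg libraries. Its log2 fold change was -0.73 ± 0.16 (edgeR adjusted p = 0.0564). Tef, its relative, stood at -0.43 ± 0.10 and the nuclear receptor gene Nr1d2 at -0.56 ± 0.13, with edgeR adjusted p of 0.0665 and 0.0621. In Dbp, Tef and Nr1d2 every Mfn2wt value was below every ntg value. The activator Arntl stood at 0.47 ± 0.22 and the D-box repressor Nfil3 at 0.32 ± 0.11, neither called. Clock genes change with the hour of the day, and the labels give no hour of collection.

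The promoter of Per3 is shown because it holds the letters of the D-box, the element that Dbp, Tef and Nfil3 bind in the mouse. The sequence is from RefSeq, build GRCm38.p6, and gives the 250 bases before a RefSeq start that lies 43 bases from the start in the deposited annotation, on the minus strand (chr4:151044666-151044915), read 5′ to 3′. Capitals mark TTATGTAA, searched on both strands.
Per3: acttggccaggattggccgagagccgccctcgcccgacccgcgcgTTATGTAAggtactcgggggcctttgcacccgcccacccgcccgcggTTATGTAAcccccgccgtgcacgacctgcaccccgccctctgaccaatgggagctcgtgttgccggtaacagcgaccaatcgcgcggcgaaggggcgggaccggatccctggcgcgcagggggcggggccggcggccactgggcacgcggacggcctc
The motif occurs 2 times in this window. It occurs in 42 of the 10045 promoters of tested genes that could be matched, or 0.418%, and 2 or more times in 3 of them. Of the 20 clock genes, 16 had a matched promoter and Per3 alone held TTATGTAA. The E-box CACGTG was in 4 of these 16, with Tef among them, and in 8.52% of all matched promoters. A match in such a window is a description of its letters and says nothing of binding.

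Cdkn1a encodes p21, an inhibitor of the cell cycle, and was higher in Mfn2wt hearts. Mfn2wt libraries held 56.9, 50.6, 58.7 and 69.8 CPM, against 46.7 CPM in the shared-number ntg library and 32.7 to 38.3 CPM in the other 5 ntg libraries. The groups did not overlap. The log2 fold change was 0.69 ± 0.12 (edgeR adjusted p = 0.0243), and it stood at 0.60 ± 0.12 against tet-off hearts. Within the shared title number it was 0.32 on the log2 scale, against 0.76 from the other 5 ntg libraries. In the fit of 3 ages Cdkn1a stood at 0.69 ± 0.28 at P1, not called there, at 1.02 at P21 and at 1.25 at 5 weeks, both called (edgeR adjusted p = 0.331, 0.0428 and 0.0458). Of 28 tested p53 targets and genes of growth arrest, Cdkn1a was the 1 called by edgeR, with 13 above 0 and 15 below and a median of -0.01. At an unadjusted p under 0.05, 4 of them were higher and 4 lower, against 7.06% and 5.79% of all genes. DESeq2 called 2 of the list higher, against 1.39% of all genes called in either direction. Of 40 cell cycle genes, 0 were called by edgeR and 0 by DESeq2. At an unadjusted p under 0.05, 4 of the 40 were higher and 0 lower, beside the same shares of all genes.

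Trabd2b, which encodes a membrane protease that cleaves Wnt proteins, was higher in all Mfn2wt libraries, at 71.4, 70.4, 61.1 and 54.6 CPM, against 36.8 to 42.0 CPM in the ntg libraries. Here the shared-number ntg library, at 38.2 CPM, lay among the other ntg libraries. The log2 fold change was 0.73 ± 0.13 (edgeR adjusted p = 0.0445), 0.74 within the shared title number and 0.71 from the other 5 ntg libraries. At later ages the gene was lower in Mfn2wt hearts, by -0.54 ± 0.10 at P21 and by -0.90 ± 0.12 at 5 weeks (edgeR adjusted p = 0.00201 and 2.13e-05). The difference at P1 minus that at P21 was 1.27 ± 0.15, and that at P1 minus that at 5 weeks 1.63 ± 0.17 (edgeR adjusted p = 6.44e-06 and 1.99e-07). Both differences between ages kept their call in each alternative run. The call at P1 was lost in 15 of 22 alternatives, 7 of them among the 10 runs without 1 library. Against tet-off hearts the gene was not called.

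Of the genes that remain, 2 showed overlap between the groups. Fhl1, which encodes a LIM-domain protein of the sarcomere linked to hypertrophy, stood at 363 and 384 CPM in Mfn2wt libraries 1 and 3 but at 161 and 179 CPM in libraries 6 and 9. The ntg libraries held 128 to 166 CPM, so the groups overlapped. The call (log2 fold change 0.96 ± 0.19, edgeR adjusted p = 0.0489) was lost without either or both of the high libraries (0.28 without both). Losses of the Fhl1 call were not confined to those runs, at 16 of 22 alternatives, 7 of them among the 10 runs without 1 library. Mgarp, a gene for a mitochondrial protein, stood at 0.852 to 2.12 CPM in Mfn2wt and at 0.214 to 1.01 CPM in ntg libraries, with overlap (1.82 ± 0.36, edgeR adjusted p = 0.0493). The Mgarp call was lost in 16 of 22 alternatives, 7 of them among the 10 runs without 1 library. Those without Mfn2wt library 1 or library 9, at 1.62 and 1.74, were among the losses.

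Of the enzymes, Oat, the ornithine aminotransferase of the mitochondrial matrix, stood at 144, 148, 134 and 147 CPM in Mfn2wt and at 91.5 to 116 CPM in ntg libraries, a log2 fold change of 0.45 ± 0.08. The inorganic pyrophosphatase Ppa1 was higher by 0.50 ± 0.10 and the glycolytic enzyme Pgam1 by 0.46 ± 0.09. Pgam1 stood at 192 to 232 CPM in Mfn2wt and at 123 to 164 CPM in ntg libraries. Atp1b1, the beta subunit of the sodium pump, was higher by 0.41 ± 0.08, and its exons overlap those of Nme7 on the other strand. At the cell surface and in the matrix, the actin regulator Baiap2 was higher by 0.60 ± 0.11, the microfibril protein Mfap5 by 0.52 ± 0.11 and the crosslinking enzyme Tgm2 by 0.55 ± 0.11. Tgm2 held 665, 532, 492 and 500 CPM in Mfn2wt libraries, against 337 to 408 CPM in ntg libraries. Their edgeR adjusted p ran from 0.0473 to 0.0493.

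Lower beside Per3 were 7 genes. Rbfox1, a splicing regulator of heart and brain, stood at 13.1, 11.5, 16.7 and 16.4 CPM in Mfn2wt libraries. Its ntg libraries held 18.6 CPM in the shared-number library and 22.1 to 30.6 CPM in the other 5 (log2 fold change -0.84 ± 0.15, edgeR adjusted p = 0.0243). Tcea3, a transcription elongation factor, was lower by -0.58 ± 0.10 with the same adjusted p. The inducible nitric oxide synthase Nos2 stood at -0.90 ± 0.18 and the mitochondrial carrier Slc25a27 at -0.73 ± 0.15. Mterfd2, a factor of the mitochondrial ribosome, stood at -0.50 ± 0.10 and the ubiquitin ligase Trim68 at -0.45 ± 0.09. Olfr609, an olfactory receptor gene of a large family whose members can share reads, stood at -1.12 ± 0.22, with 3.60 to 6.12 CPM in Mfn2wt and 6.59 to 15.4 CPM in ntg libraries.

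The position of the shared-number ntg library ran through these genes. The groups did not overlap in 18 of the 20, against 2.83% of all genes tested. In 17 of the 20 called genes (85%) it lay between the Mfn2wt mean and the mean of the other 5 ntg libraries, against 23.8% of all genes tested. It was the ntg library nearest the Mfn2wt mean in 12 of 20 (60.0%), against 16.6% of all genes. The direction against the shared-number ntg library was that against the other 5 ntg libraries in all 20, and in 62.8% of all genes tested. The median size of the difference over the 20 was 0.39 within the shared number and 0.67 against ntg libraries 1 to 5, both on the log2 scale. Over all genes tested these medians were 0.176 and 0.118. A call needs the groups to stand apart, so these shares describe the called genes and test nothing.

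Both Mfn2wt libraries with high Fhl1 also held more transcripts of atrial and skeletal muscle markers. Summed over 15 atrial markers, Mfn2wt libraries held 6393, 9821, 2152 and 1279 CPM (libraries 1, 3, 6 and 9), against 769 to 3372 CPM in ntg libraries. The atrial natriuretic peptide gene Nppa alone stood at 2710, 4310, 734 and 611 CPM in Mfn2wt and at 202 to 1210 CPM in ntg libraries. Of the 15 atrial markers, 0 were called by edgeR or DESeq2, 13 were higher at an unadjusted p under 0.05, and the median log2 fold change was 0.91. Over all genes tested, edgeR called 0.146% and DESeq2 1.39%, and 7.06% were higher at that unadjusted p. Skeletal muscle markers stood out in the same pair. Myh8, a myosin of fetal skeletal muscle, stood at 148, 34.7, 2.91 and 1.93 CPM in Mfn2wt and at 0.686 to 7.39 CPM in ntg libraries. Without Acta1 and Ckm, which the heart also expresses, the skeletal muscle markers summed to 314, 60.0, 12.4 and 11.4 CPM in Mfn2wt and 8.92 to 18.1 CPM in ntg libraries. Of 9 skeletal muscle markers tested, 0 were called by edgeR, 5 were called higher by DESeq2 and 8 were higher at an unadjusted p under 0.05 (median 1.78). The ventricular markers had a median of -0.08. In bulk tissue, more cells of a type and more RNA per cell cannot be told apart.

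**Figure D2:**
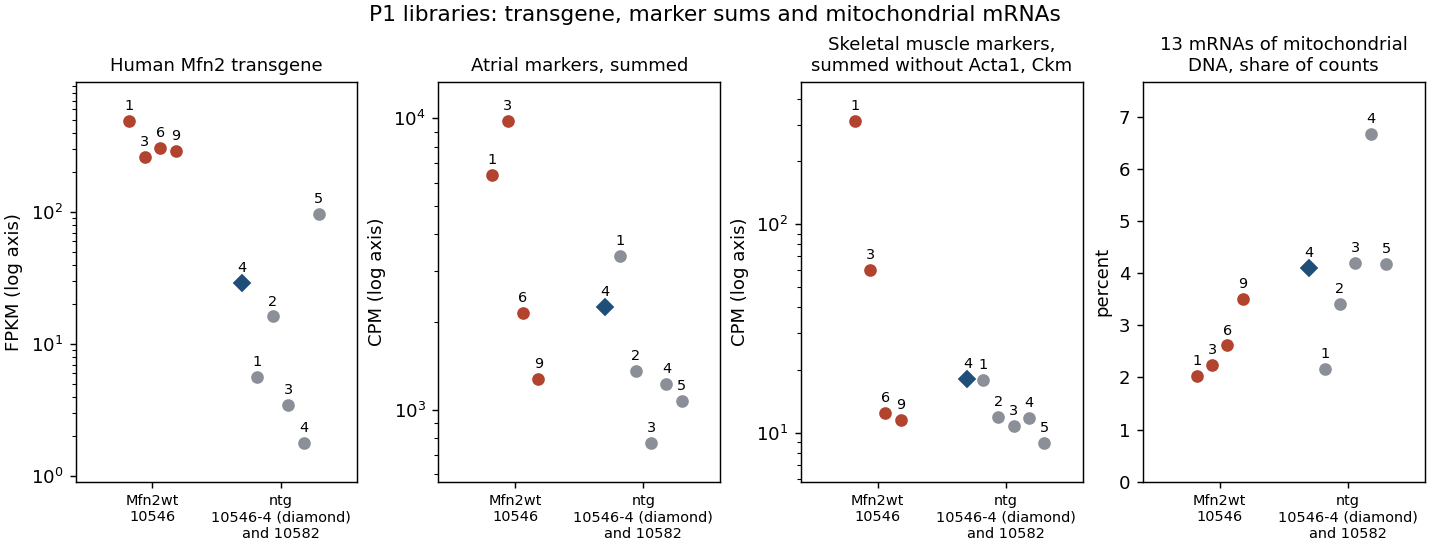
Each point is a P1 library, with the last digit of its title beside it, Mfn2wt on the left and ntg on the right of each panel, the shared-number ntg library as a diamond. From the left, the panels plot the human transgene (FPKM, log axis), the sum of 15 atrial markers and that of the skeletal muscle markers without Acta1 and Ckm (CPM, log axes), and the share of counts on the 13 mRNAs of mitochondrial DNA (percent). Mfn2wt libraries 1 and 3 lead both marker sums.

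Lists that share cells or genes with these markers leaned the same way. Their counts stand beside 0.146% of all genes called by edgeR, 1.39% called by DESeq2 and 7.06% higher at an unadjusted p under 0.05. Of 17 fetal sarcomere isoforms tested, 0 were called by edgeR, 4 were called higher by DESeq2 and 12 were higher at an unadjusted p under 0.05 (median 0.72). Without both libraries of highest atrial sum the median was 0.06. Of 33 collagen and matrix genes all 33 stood above 0 and Tgm2 was the 1 called, with 10 higher at an unadjusted p under 0.05. Their median of 0.38 became -0.12 without the same pair of libraries and -0.06 with the atrial marker mean as a term. Col3a1, a fibrillar collagen, averaged 1930 CPM in Mfn2wt and 1480 CPM in ntg hearts, at 0.38 ± 0.27. Of 14 fibroblast markers, Mfap5 was the 1 called, and the median was 0.35. Endocardial markers (9) and epicardial markers (11) had medians of 0.43 and 0.42, with 0 called by edgeR or DESeq2 and 6 and 4 higher at an unadjusted p under 0.05. Of 23 natriuretic and cardiac stress genes Fhl1 was the 1 called by edgeR, DESeq2 called 4 higher and 14 were higher at an unadjusted p under 0.05. The median of this list was 0.43 with all libraries and 0.22 without the pair. Acta1, skeletal actin, which immature hearts also make, stood at 455, 146, 97.6 and 110 CPM in Mfn2wt and 51.7 to 85.7 CPM in ntg libraries (1.49 ± 0.35, edgeR adjusted p = 0.0665). What part these markers have in the called genes was not tested. The pair was chosen for its high atrial sums after the data were seen, and some lists share members with the markers. The medians without the pair are thus a description.

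**Figure D3:**
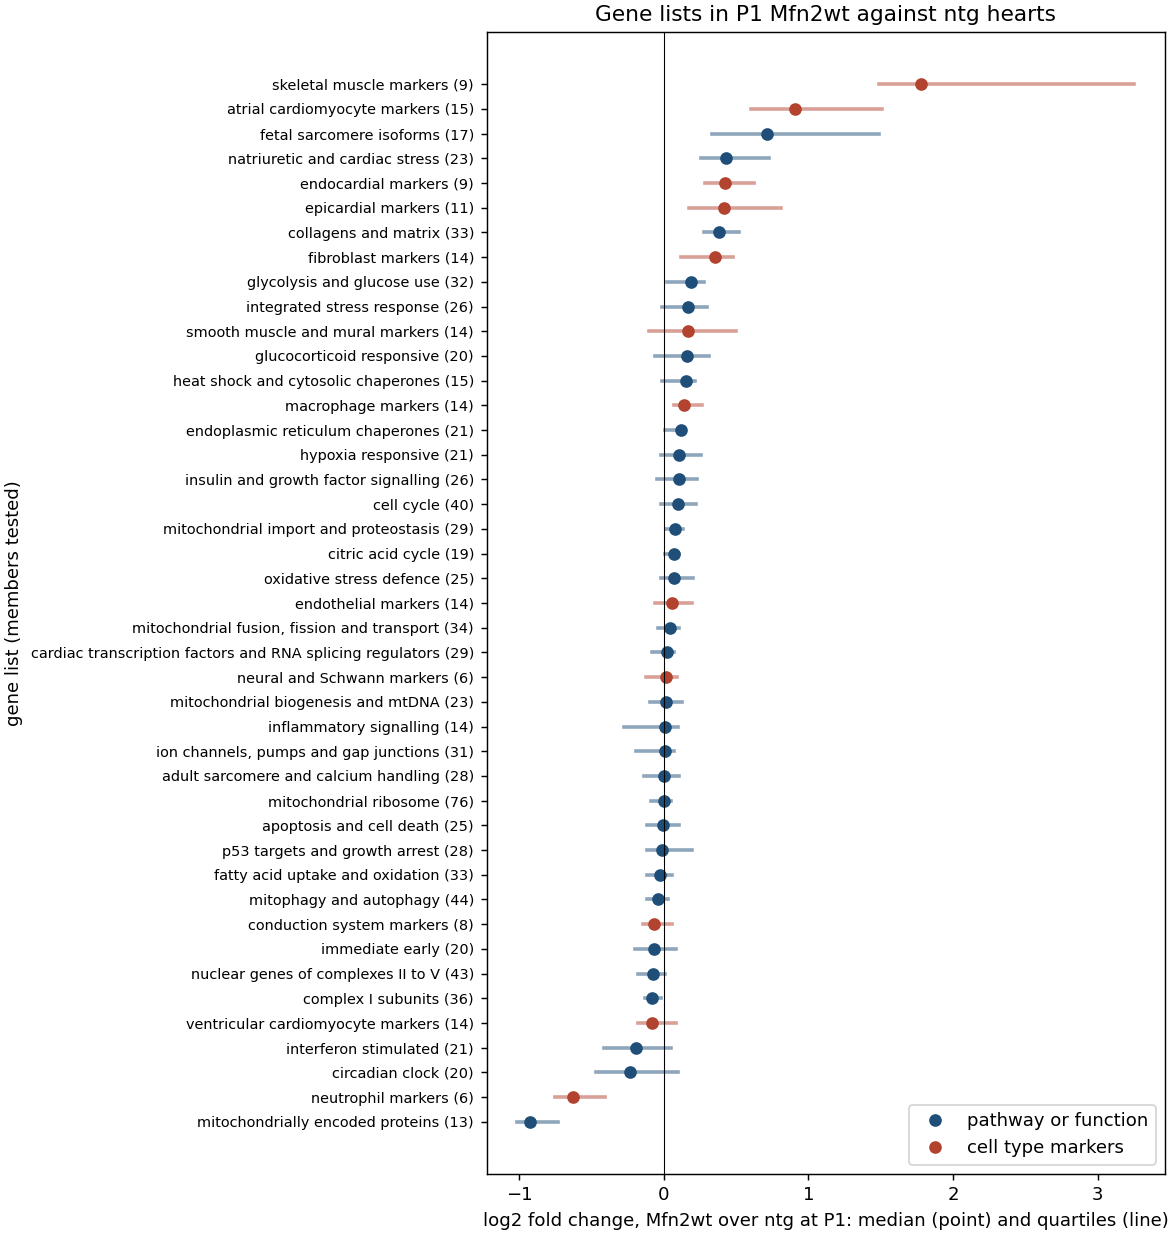
Median (point) and quartiles (line) of the log2 fold change of Mfn2wt over ntg hearts at P1 for each gene list with at least 5 tested members, pathways in blue and cell type markers in red. Skeletal muscle and atrial markers stand highest, at 1.78 and 0.91, mitochondrially encoded proteins lowest at -0.92, and nuclear mitochondrial lists near 0.

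On the lists of nuclear genes for mitochondria given here 0 passed by edgeR, where 0.146% of all genes were called. DESeq2 called 1.39% of all genes. At an unadjusted p under 0.05, 7.06% of all genes were higher and 5.79% lower. Among 34 genes of mitochondrial fusion, fission and transport, 0 were called by edgeR or DESeq2 and 2 were higher at an unadjusted p under 0.05 (median 0.05). Those nearest to the threshold were the fission GTPase gene Dnm1l at 0.21 ± 0.07 and the inner-membrane fusion gene Opa1 at 0.20 ± 0.08, with edgeR adjusted p of 0.222 and 0.279. Among 44 genes of mitophagy and autophagy, 0 were called by edgeR, 1 was called lower by DESeq2 (Pink1) and 3 had an unadjusted p under 0.05 (median -0.04). Bnip3l, a mitophagy receptor, stood at -0.19 ± 0.08. The 36 complex I subunits had a median of -0.08, the 43 nuclear genes of complexes II to V -0.07, and the 76 mitochondrial ribosome genes 0.00. By edgeR and by DESeq2, 0 of these were called, and 1, 0 and 2 of them had an unadjusted p under 0.05. The 33 genes of fatty acid uptake and oxidation had a median of -0.02 with 0 called by either tool and 3 at an unadjusted p under 0.05.

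The 13 mRNAs encoded by mitochondrial DNA were lower without passing. They took 2.03% to 3.51% of the counts in Mfn2wt and 2.16% to 6.68% in ntg libraries, with overlap. All 13 stood below 0 with a median of -0.92, and 0 were called by edgeR, DESeq2 or limma. Of all genes, edgeR called 0.146% and DESeq2 1.39%. At an unadjusted p under 0.05, 11 of the 13 were lower, against 5.79% of all genes. mt-Nd6, a subunit of complex I, stood at 563 to 838 CPM in Mfn2wt and 797 to 2270 CPM in ntg libraries (-0.92 ± 0.24, edgeR adjusted p = 0.0993). The Mfn2wt libraries with the highest atrial sums held the lowest shares, 2.03% and 2.24%, and without both the median was -0.72. With the title number as a block, which leaves only the shared-number library on the ntg side, it was -0.55.

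Among 32 genes of glycolysis and glucose use, Pgam1 was the 1 called, with 12 higher and 3 lower at an unadjusted p under 0.05 and a median of 0.19, against 7.06% higher, 5.79% lower and 0.146% called over all genes. DESeq2 called 5 higher and 1 lower, against 1.39% of all genes called in either direction. Pgk1 averaged 638 CPM in Mfn2wt and 465 CPM in ntg hearts (0.46 ± 0.11, edgeR adjusted p = 0.0684), and Gapdh 2080 and 2000 CPM (0.05 ± 0.15). Against tet-off hearts the median of the list was 0.01 and 0 were called.

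The tet-off hearts offer another control from the same library preparation. This contrast shares the 4 Mfn2wt libraries with the comparison above, so the values are given side by side only. Against tet-off, 80 of 13653 genes were called by edgeR (0.586%), 50 higher and 30 lower. Of the 20 genes above, Macrod2 stood at 3.12 ± 0.16, Per3 at -0.63 ± 0.14, Cdkn1a at 0.60 ± 0.12, Mfap5 at 0.70 ± 0.11 and Trim68 at -0.42 ± 0.10, each called. Over 20 alternatives the call of Macrod2 was lost in 0, that of Mfap5 in 3, those of Per3 and Cdkn1a in 13 each and that of Trim68 in 16. The rest of the 20 were not called against tet-off. Among these were Trabd2b, Rbfox1, Tcea3, Baiap2, Oat, Fhl1, Pgam1, Nos2, Mterfd2 and Olfr609. Not called either were Mgarp at 0.00 ± 0.32, Slc25a27 at 0.01 ± 0.16, Tgm2 at 0.06 ± 0.12, Atp1b1 at 0.08 ± 0.09 and Ppa1 at 0.08 ± 0.10. Among the 5 greatest falls against tet-off, Endod1, an endonuclease gene, stood at -2.81 against tet-off and at 0.33 ± 0.22 against ntg hearts. Zbtb16, a transcription factor that glucocorticoids induce, stood at 2.23 against tet-off (edgeR adjusted p = 0.0484) and at 1.55 ± 0.46 against ntg hearts (edgeR adjusted p = 0.152). Its Mfn2wt values were 12.5, 12.1, 79.0 and 105 CPM in libraries 1, 3, 6 and 9, against 8.49 to 29.6 CPM in ntg libraries, so libraries 6 and 9 stood apart here. Its call against tet-off was lost in 12 of 20 alternatives, and without library 6 or library 9 it stood at 1.95 and 1.65. The fast skeletal troponins Tnnt3 and Tnnc2 stood at 3.31 and 5.18 against tet-off, with the highest values, 49.1 and 35.5 CPM, in Mfn2wt library 1. Without that library Tnnt3 stood at 1.07 (edgeR adjusted p = 0.312), and without libraries 1 and 3 at 0.07. The Tnnt3 call was lost in 15 of 20 alternatives and the Tnnc2 call in 10 of 16.

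At P21 and 5 weeks, Mfn2wt hearts differed from ntg hearts in 101 (0.726%) and 122 (0.877%) of 13918 genes by edgeR, in a fit of the 3 ages. The difference itself changed with age in 26 genes for P1 against P21 (0.187%), 13 higher and 13 lower, and in 58 for P1 against 5 weeks (0.417%), 19 higher and 39 lower. Age, library preparation and tissue changed together between these sets, and what part each has cannot be told apart.

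The integrated stress response separated the ages. In this response, kinases that sense amino acid shortage or damaged mitochondria slow translation, and the factor ATF4 switches on genes of amino acid and one-carbon metabolism. Of 28 genes of the list tested in that fit, 14 were higher in Mfn2wt hearts at P21 and 18 at 5 weeks by edgeR, with medians of 0.43 and 1.04. At P1, 0 of 26 were called by edgeR in the P1 fit and 1 was called higher by DESeq2, against 0.146% and 1.39% of all genes. The median at P1 was 0.17. At an unadjusted p under 0.05, 6 were higher and 1 lower, against 7.06% and 5.79% of all genes. The difference at P1 was below that at P21 in 7 genes and below that at 5 weeks in 12, with 0 above in either.

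Mthfd2, the mitochondrial enzyme of one-carbon metabolism, had the greatest difference between ages among the members where that difference was called. At P1 it stood at 7.05, 8.90, 8.94 and 6.63 CPM in Mfn2wt and 4.71 to 7.85 CPM in ntg libraries. Its difference at P1 was 0.24 ± 0.16 in the P1 fit (edgeR adjusted p = 0.564) and 0.24 ± 0.24 in the fit of 3 ages. In the latter fit it was 3.81 ± 0.22 at P21 and 5.34 ± 0.29 at 5 weeks. P1 thus lay 3.57 ± 0.33 below P21 and 5.10 ± 0.38 below 5 weeks (edgeR adjusted p = 6.1e-08 and 3.72e-10). Fgf21, a hormone of the same list, stood at 3.87 ± 0.47 at P21 and 6.23 ± 0.55 at 5 weeks, both called, but its differences from P1, where the error was 1.17, were not called. Asns, asparagine synthetase, leaned the same way already at P1. It stood at 4.24, 4.55, 3.79 and 4.58 CPM in Mfn2wt libraries, against 3.42 CPM in the shared-number ntg library and 1.39 to 2.88 CPM in the other 5 ntg libraries. The groups did not overlap (0.88 ± 0.22 in the P1 fit, edgeR adjusted p = 0.0772). In the fit of 3 ages the Asns difference at P1 was still below that at P21, by -2.10, and below that at 5 weeks, by -2.92. Phgdh, the entry enzyme of serine synthesis, stood at 0.46 ± 0.14 at P1, and the amino acid transporter gene Slc7a5 at 0.44 ± 0.14, neither called. The factors themselves stood near 0 at P1, with Atf4 at -0.02 ± 0.09, Atf5 at 0.02 ± 0.10 and Trib3 at 0.02 ± 0.26, and the pro-death factor Ddit3 stood at -0.28 ± 0.12.

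**Figure D4:**
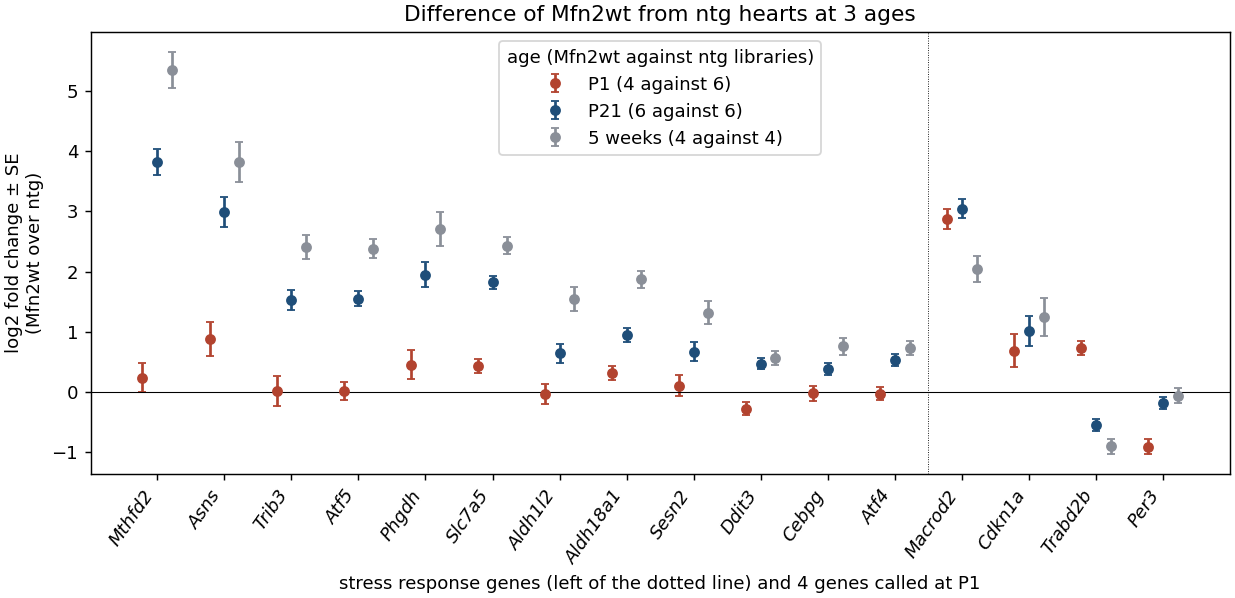
Log2 fold change of Mfn2wt over ntg hearts with its standard error at P1 (red), P21 (blue) and 5 weeks (grey), from the fit of 3 ages. Left of the dotted line are the 12 stress response genes whose difference at P1 was below that at 5 weeks, and right of it 4 genes called at P1. Mthfd2 stands at 0.24, 3.81 and 5.34, and Macrod2 is above 2 at each age.

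Higher at P1 relative to later ages, beside Trabd2b, was Casq1, the calcium-binding protein calsequestrin 1. In the fit of 3 ages it stood at 0.68 ± 0.17 at P1 (not called), -0.61 at P21 and -1.09 at 5 weeks. The differences between ages were 1.29 and 1.77. Adra2b, an adrenergic receptor, stood at 1.31 ± 0.26 at P1 in the fit of 3 ages, and 1.74 above P21. Its edgeR adjusted p at P1 was 0.0246 in that fit and 0.0707 in the P1 fit. Per3 was the gene called at P1 whose difference was lower there than later, by -0.72 ± 0.16 relative to P21 and -0.84 ± 0.17 relative to 5 weeks (edgeR adjusted p = 0.0452 and 0.0186). The call relative to P21 was lost in 20 of 28 alternatives, 18 of them runs without 1 library, and that relative to 5 weeks in 4 of 24. Tnni2, a fast skeletal troponin, stood 2.87 above P21, and its P1 values of 31.3, 6.91, 3.50 and 3.13 CPM in Mfn2wt libraries, against 2.46 to 3.91 CPM in ntg libraries, show 1 library far above the rest. Without that library the difference from P21 was 1.52 and not called.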

How the data were processed

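RNA was polyadenylated RNA of mouse hearts, read from single ends without strand information, per the labels' protocols. The authors aligned reads with Bowtie2 and TopHat2 2.0.10 to mm10 and counted them per gene with HTSeq, per the submitters' processing notes. The deposited count table holds raw read counts of 23429 genes, not normalized. The deposited FPKM values come from Cufflinks 2.1, per the same notes, and list the human transgene. The other unit used, base positions of exons, is from the deposited annotation.

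Counts were tested with edgeR 4.0.16 in R 4.3.3, using TMM scaling, filterByExpr and the quasi-likelihood test. One fit held all 18 P1 libraries, and another the 30 Mfn2wt and ntg libraries of the 3 ages. Genes with a Benjamini-Hochberg adjusted p under 0.05 over all genes tested were called, and errors of log2 fold changes are standard errors. CPM are counts scaled to TMM library sizes. The test steps were tested on simulated data. Alternatives were DESeq2 1.42.0, scaling by RLE, leaving out the filter, limma 3.58.1 on log2 of FPKM with 1 or 0.1 added (mean of at least 1 in a group, or no filter), the 2 groups alone, all 4 genotypes, the title number as a block, terms for atrial markers and Xist, and leaving out each library. A term for skeletal muscle markers and leaving out Mfn2wt libraries 1 and 3 together were added after the data were seen. The comparison, gene lists and tests were chosen with earlier results of these data known.

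The naming rule took the transgene, Mfn2, Pink1, Park2 and every called gene. It took genes starting within 2 Mb of a called gene of at least 2 on the log2 scale. Of each list it took the called members with up to 3 others of smallest p and 2 of highest level. In the other comparisons it took the 5 greatest rises and falls of at least 1 CPM. Not every gene that the rule took is described. Nr4a3 and Arhgef16, from the tet-off comparison, are among those left without values. Nfil3, Arntl, Slc7a5, Fgf21 and Ddit3, list members outside the rule, were chosen after their values were seen. Symbols of 6 list members were not matched. Figures were drawn with matplotlib 3.10.9. Counting error is part of the spread between libraries.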

Additional observations from a re-analysis of the deposited data

Results flagged for a closer look

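Of 56 groups of values tested for a library far from the others, 8 stood out. The cutoff is meant for 1 in 20 in a single group, but many groups are of genes called from these same libraries. The count of 8 is thus a description and tests nothing. The shared-number ntg library stood apart for Macrod2 (6.21 CPM), Per3 (39.4 CPM) and Ppa1 (17.6 CPM), each time on the side of the Mfn2wt libraries. Of the other ntg libraries, library 2 was low for Park2 (3.02 CPM), library 5 high for the transgene (97.6 FPKM) and library 1 high for the ribosomal repeat Rn45s (14.1% of counts). Mfn2wt library 1 was high for Baiap2 (20 CPM) and for the skeletal muscle markers without Acta1 and Ckm (314 CPM).

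Between ages, 26 genes were called relative to P21 and 58 relative to 5 weeks, and not all are listed. Looked at here were the genes called at P1, Mfn2, Pink1, Park2 and the 5 greatest rises and falls for each later age. The difference of Mfn2wt from ntg hearts at P1 departed from that at a later age in the following ones, by edgeR's test of the difference on the log2 scale. Relative to P21 it was lower for Mthfd2 (-3.57), Asns (-2.10), Sun3 (-1.87), Atf5 (-1.53), Trib3 (-1.51) and Per3 (-0.72). It was higher for Tnni2 (2.87), Slc17a7 (2.36), Sema6c (1.77), Pdlim4 (1.76), Adra2b (1.74), Casq1 (1.29) and Trabd2b (1.27). Relative to 5 weeks it was lower for Mthfd2 (-5.10), the mitochondrial tRNA gene mt-Tl1 (-4.15), Aqp8 (-2.93), Asns (-2.92), Brca2 (-2.59), Trib3 (-2.39), Atf5 (-2.36) and Per3 (-0.84). It was higher for Casq1 (1.77), Trabd2b (1.63), Colq (1.39), Cyr61 (1.30), Fah (0.98), Atp1b1 (0.68) and Ppa1 (0.60). These departures were not equally stable. Relative to P21 the call was lost in 0 of 28 alternatives for Mthfd2, Atf5, Adra2b and Trabd2b, in 1 for Asns, in 5 for Tnni2 and Trib3, in 16 for Sema6c, in 18 for Sun3, in 19 for Pdlim4 and Slc17a7 and in 20 for Per3. Relative to 5 weeks it was lost in 0 of 24 for Mthfd2, Asns, Brca2, Casq1 and Trabd2b, in 2 for Cyr61, in 4 for Per3, in 5 for Colq, in 11 for mt-Tl1, in 14 for Fah, in 15 for Atp1b1, in 17 for Aqp8 and in 18 for Ppa1. Age, batch and tissue cannot be told apart in these differences.

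Sel1l2, which fell below the filter on low counts, had 29 reads in Mfn2wt and 0 in ntg libraries of P1.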

How the results depend on the processing

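Counts of called genes moved with the libraries more than with the scaling. Of the 20 genes called in Mfn2wt against ntg hearts at P1, 18 were called with RLE scaling. The count was 42 without a filter, 177 with DESeq2, 1, 1 and 3 with limma (1 added, 0.1 added, and no filter), 8 with the 2 groups alone, 6 with Xist as a term, 2 with skeletal muscle markers as a term and 5 without Mfn2wt libraries 1 and 3. With the atrial marker mean as a term 16 genes were called, 5 of them among the 20. Leaving out 1 library gave 1 to 115 genes. It gave 1, 5, 85 and 11 without Mfn2wt libraries 1, 3, 6 and 9, 115 without the shared-number ntg library, and 3, 5, 2, 3 and 2 without ntg libraries 1 to 5.

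The title number is shared by the Mfn2wt libraries and 1 ntg library only. With it as a replicate block, the contrast rests on the 4 Mfn2wt libraries and the 1 shared-number ntg library. Macrod2 stood at 2.34 in that run. With 1 ntg library of that number, the run cannot tell an effect of the number from the values of that library. It is among the alternatives counted below. The pairing is not given by the labels, and with 1 shared number no check of it was possible. No paired analysis was possible against tet-off because no title number links those groups, and the fit of 3 ages was not run with a block.

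All 20 genes kept their direction in each of the 22 alternatives, and Macrod2 also its call. Per3 lost its call in 7, Cdkn1a in 11, Tcea3 in 12, Rbfox1 in 13, Trabd2b and Baiap2 in 15, and the other 13 genes in 16 to 18. Pink1 passed with DESeq2, without Mfn2wt library 6 and without the shared-number ntg library. The transgene kept its call in all alternatives, with a difference of 313 FPKM on the linear scale and 4.89 with 0.1 added.

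Against tet-off hearts the count of 80 was 217 with DESeq2, 13, 15 and 11 with limma (1 added, 0.1 added, no filter), 17 with the 2 groups alone, 16, 40 and 20 with terms for atrial markers, Xist and skeletal muscle markers, and 3 without Mfn2wt libraries 1 and 3. It ran from 20 to 121 when 1 library was left out. Gm5512, at -4.74, reversed in limma on FPKM to 0.021, 0.023 and 0.021, and the cause was not tested. The difference between P1 and P21 gave 88 genes with DESeq2, 11 with the atrial term, 6 without the pair of libraries and 9 to 58 without 1 library, against 26. That between P1 and 5 weeks gave 98 with DESeq2, 29 without the pair and 27 to 157 without 1 library, against 58. Mthfd2 and Trabd2b were called in each of these.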
